A study of Salmo salar with 60 samples.

Results

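The comparison of day 5 with day 3 of soybean meal feeding set the 10 Atlantic salmon titled as sampled after 5 days against the 10 titled as sampled after 3 days, 5 of each tank on each day, 20 of the 60 arrays of the series. The study followed gene expression in the distal intestine while soybean meal enteritis develops. All fish were of the Sunndalsøra breed, weighed 500 to 600 g at the start, were held at 25 to 30 per tank in running seawater, and spent 7 days on a reference diet with 563 g of fishmeal per kg as its only protein source. Both groups compared here then received, in duplicate tanks, a test diet in which 200 g of defatted soybean meal per kg took the place of part of the fishmeal. Both diets held about 28% lipid and 43% crude protein. The groups therefore differ in days on soybean meal and share everything else that the labels record. Fish on the fishmeal diet were sampled on day 0 only among the samples used here, so time on soybean meal and other effects of time cannot be told apart. Only fish with content along the whole gut were taken, and 10 fish from 2 tanks stand for each day.

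Soybean meal in the feed of salmonids is known to cause a subacute inflammation of the distal intestine, in which the mucosal folds shorten, the absorptive vacuoles of the enterocytes disappear and leukocytes enter the lamina propria. The condition develops over days and recedes when the soybean meal is withdrawn. The distal intestine takes up intact macromolecules through its enterocytes and holds many immune cells, so that a sample of the whole tissue mixes epithelial, immune and muscle RNA. Day 3 and day 5 lie within the week over which the study sampled the fish.

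RNA from about 20 mg of tissue of each fish was labelled with the red dye Cy5 and hybridised with a green, Cy3-labelled pool of 18 fish, 3 of each sampling day, so the pool itself held RNA of day 3 and day 5 fish. Each fish had 1 array and dyes were not swapped. Values are log2(Cy5/Cy3) after 50 was added to both background-corrected signals and each array was normalized by loess. Nominally, 0 then stands for the level of the pool and 1 for 2 times that level. Without a dye swap, each value also holds any dye effect of its probe, which cancels only in differences between days. The added 50 shrinks the ratios of dim probes. The 43627 probes tested were therefore divided into 16502 bright probes (37.8%), whose median Cy5 signal over the 60 arrays was at least 200 scanner units, and 27125 dim ones. The median Cy5 signal of an array ran from 61 to 125 on day 3 and from 58.5 to 111 on day 5, and the difference in means was within the spread between fish (two-sided exact permutation p = 0.745). By slide numbers read from the names of the deposited arrays, which the labels do not state, the 20 arrays lay on 13 slides, and 4 of these held fish of both days. The files name a probe by its column and row on the array only, so probes are given by position, no gene name or sequence is given, and the tissue label was not checked against marker genes.

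For day 5 against day 3, limma called 0 of 43627 probes (0%), bright or dim. The threshold was 0.05 on the p-value adjusted by the Benjamini-Hochberg method over all probes. The smallest adjusted p was 0.0764, shared by a bright probe that was lower on day 5, C259R069, and a dim probe that was higher, C016R082. With fit and adjustment limited to the 16502 bright probes, limma called 1 probe, C259R069 (adjusted p = 0.0408). Before adjustment, 3165 probes (7.25% of those tested) had a limma p under 0.05, of which 1496 (3.43%) lay above and 1669 (3.83%) below their day 3 level. The exact Wilcoxon rank sum test also called 0 probes after adjustment, where its lowest value was 0.417, and gave 3136 probes unadjusted. For no probe did the 10 fish of day 5 all lie on one side of the 10 fish of day 3. The fish enter these tests as independent samples, although only 2 tanks supplied each day. With slide in the fit limma called 0 probes as well, and the bright probes at an unadjusted p under 0.05 numbered 1252 with slide as a fixed block and 1595 with slide as a random one, against 1622 without it. In whole tissue, fewer cells of a type and less RNA per cell cannot be told apart.

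The probes with small p-values were not spread evenly over signal. Of the bright probes, 1622 (9.83%) had an unadjusted limma p under 0.05, of which 672 (4.07%) were higher and 950 (5.76%) were lower on day 5. Of the dim probes, 1543 (5.69%) did, with 824 (3.04%) higher and 719 (2.65%) lower. The share grew from 5.21% of the 19078 probes with a median Cy5 signal under 50 to 6.82% between 50 and 200, 9.08% between 200 and 1000, 10.4% between 1000 and 10000, and 10.7% of the 1979 probes at 10000 or more. The surplus of lower over higher probes appeared from a signal of 200 upward, with 416 lower against 260 higher between 200 and 1000, 416 against 319 between 1000 and 10000, and 118 against 93 above. Below a signal of 50, the order was the other way, with 541 higher and 453 lower. With each array centred on its median in place of loess, 1113 bright probes were counted, of which 251 were higher and 862 lower, while the median difference over all probes moved only to 0.01. The split between the directions therefore rested in part on the scaling, while lower probes outnumbered higher ones under both.

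**Figure D1:**
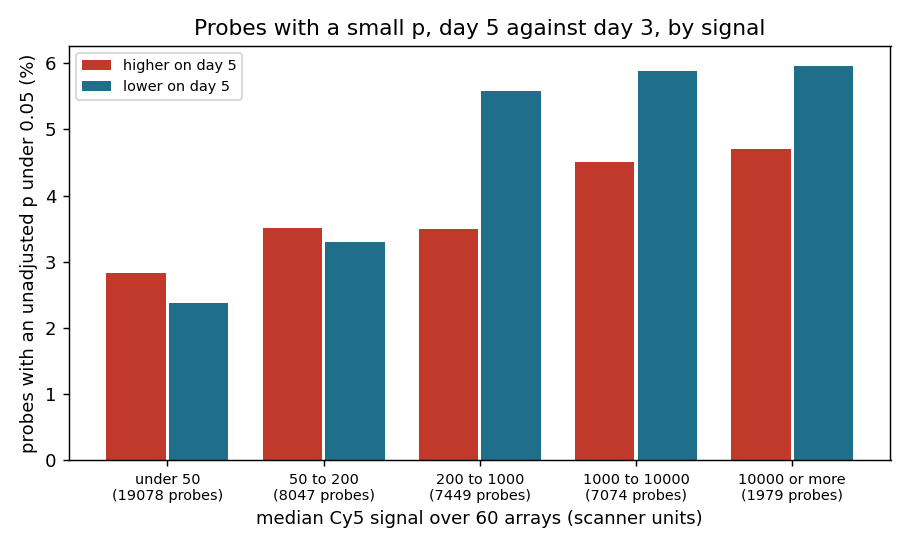
Percent of probes with an unadjusted limma p under 0.05 for day 5 against day 3 (vertical axis) in 5 classes of median Cy5 signal in scanner units (horizontal axis), separately for probes higher and lower on day 5. Both bars are taller from a signal of 1000 upward than below 50, and from 200 upward the bar of lower probes stands above that of higher probes.

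Most bright probes differed little between the days. The median absolute difference was 0.14 log2 units for bright probes and 0.10 for dim ones. The 95% confidence interval of the difference lay within 2-fold in either direction for 92.7% of the bright probes (90.2% without the added 50). For dim probes the share was 99.5% with the added 50 but 32.2% without it, so the dim probes are bounded mainly by that offset. The SD between fish of a bright probe had a median of 0.29 log2 units on day 3 and 0.35 on day 5, and it was the larger on day 5 for 69.0% of bright and 49.5% of dim probes.

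The spread was also measured for each fish as the root mean square distance of its bright probes from the mean of the other fish of its day. On day 3 this distance ran from 0.350 over a median of 0.387 to 0.512 log2 units. On day 5 it ran from 0.378 over a median of 0.474 to 0.615. The ranges overlap, but 4 fish of day 5, replicates 2, 4, 6 and 9, lay beyond the most distant fish of day 3. The mean was 0.403 ± 0.055 on day 3 and 0.488 ± 0.087 on day 5 (SD, n = 10 each), a difference of 0.0847 (two-sided exact permutation p = 0.0195, and 0.0974 after adjustment over 5 properties of the arrays). The day 5 mean was the higher in each tank, with 0.401 on day 3 and 0.4997 on day 5 in tank 1 and with 0.405 and 0.476 in tank 2. Over dim probes the difference was 0.00887 (exact permutation p = 0.488). In these tests the distances were moved between the days without being recomputed. Distances within a day share fish and are not independent, so the p-values are approximate. The distance is not given for the other days, so whether day 3 or day 5 departs from them was not tested.

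As one value for the whole profile, 8.85% of the variation of the bright probes among the 20 fish lay between the days, where all splits of the 20 fish into 10 and 10 gave 5.26% on average (one-sided exact permutation p = 0.0678). For dim probes the share was 5.69% (exact permutation p = 0.164). The change in one tank said little about the change in the other. Across bright probes, the day 5 minus day 3 difference in tank 1 correlated with that in tank 2 at 0.06, where probes are not independent replicates, and the value was set against all 63504 assignments of days within tanks (two-sided exact permutation p = 0.782). The sign was the same in both tanks for 54.9% of bright and 50.9% of dim probes. By signal, the correlation was highest, at 0.19, in the class of 10000 or more.

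**Figure D2:**
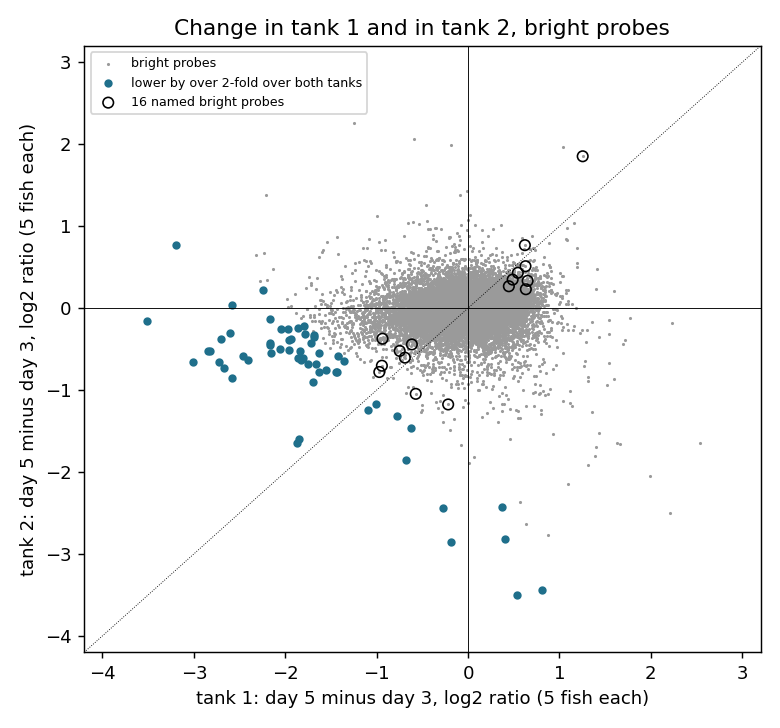
Day 5 minus day 3 difference of each bright probe in tank 1 (horizontal axis) against tank 2 (vertical axis), both in log2 ratio units and from 5 fish per day and tank. The cloud is wider along tank 1 than along tank 2, most of the 57 probes lower by over 2-fold lie far to the left of the diagonal, and the 16 named bright probes, chosen to have the same sign in both tanks, lie in the lower left and upper right.

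Tank 1 carried the larger differences. Its median absolute difference over bright probes was 0.24 log2 units, against 0.13 in tank 2. In limma fits of each tank alone, 1980 bright probes (12%) had an unadjusted p under 0.05 in tank 1 and 642 (3.89%) in tank 2, and neither gave a call after adjustment. Of the dim probes, 1789 (6.6%, 3.38% higher on day 5) and 1105 (4.07%, 1.99% higher) had one. Tested directly, the change differed between tanks for 0 of 43627 probes (0%) past the adjusted limma threshold, where the lowest value was 0.105. Before adjustment 2384 probes (5.46%) were under 0.05 in that test, 1001 of them bright (6.07% of bright probes) and 1383 dim (5.1% of dim ones). The larger tank 1 differences were therefore not shown to differ from those of tank 2 for any single probe.

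Since the tanks share no fish, probes picked in one can be read in the other. Of the 815 bright probes (4.94%) higher on day 5 in tank 1 with an unadjusted limma p under 0.05, 61.7% were also higher in tank 2, where 49.8% of all bright probes were. Of the 1165 lower ones, 65.2% were lower in tank 2, against 50.2% of all. Their median difference shrank from -0.66 in tank 1 to -0.08 in tank 2. Picked in tank 2 and read in tank 1, 55.6% of 189 higher (1.15% of bright probes) and 56.5% of 453 lower probes kept their direction, against 49.8% and 50.2% of all. Of dim probes picked in tank 1, 54.6% of the higher and 53.4% of the lower did, against 50.3% and 49.7% of all. Picked in tank 2, 56.0% and 45.0% did, against 51.4% and 48.6%. A difference in the tank of the choice is enlarged by the choice of small p-values. Probes are not independent replicates, and these shares were not tested. The tanks shared slides and the reference pool.

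The estimate passed 2-fold for 62 bright probes, 57 of them lower and 5 higher on day 5, and for 3 dim probes, all higher. With single fish left out, the lower count ran from 40 to 110 and the higher count from 3 to 11, with 89, 110 and 86 lower probes without replicates 1, 2 and 5 of day 5 and 11 higher probes without replicate 10 of day 3. Of the 57 lower probes, 26 had an unadjusted limma p under 0.05, set against 5.76% of all bright probes in that direction, and the smallest adjusted p among them was 0.581. Because the same contrast picked these probes, their values describe them and test nothing. Their median Cy5 signal was 2735, in the upper part of the range, and their median SD between fish was 0.98 log2 units on day 3 and 1.33 on day 5, against 0.29 and 0.35 for all bright probes.

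**Figure D3:**
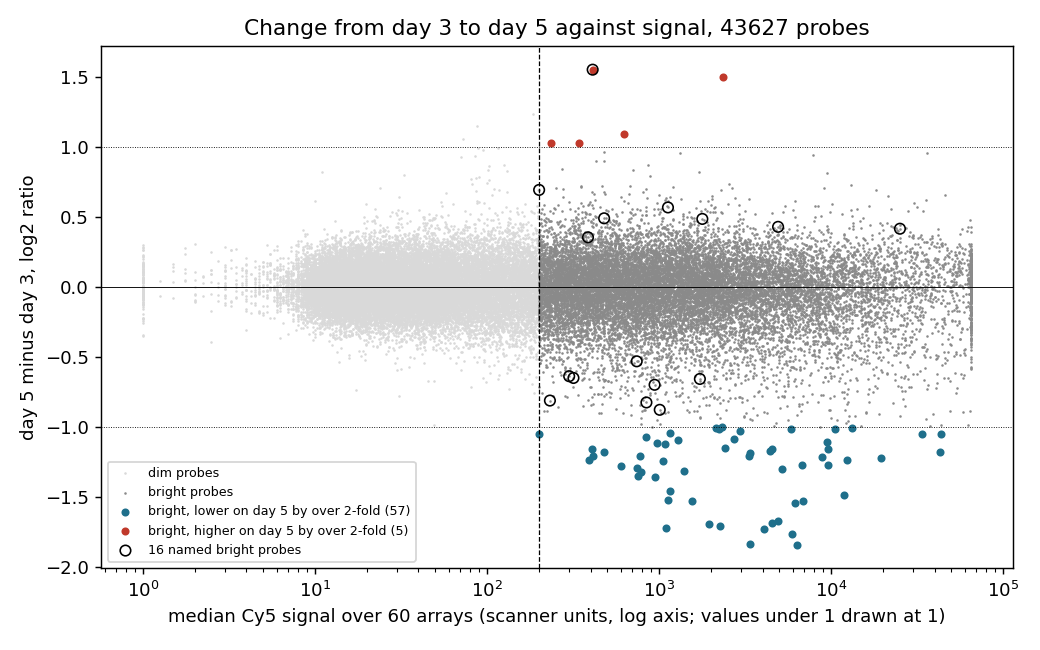
Day 5 minus day 3 difference in log2 ratio of each of 43627 probes (vertical axis) against its median Cy5 signal in scanner units (horizontal log axis, dashed line at 200). The 57 bright probes below the lower dotted line outnumber the 5 above the upper one, and most named bright probes lie well inside these 2-fold lines because they were chosen by p and not by size.

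Averaged over the 57 probes, the log2 ratio of a fish of day 3 lay between -0.89 and 0.90, with a median of -0.02. A fish of day 5 lay between -2.86 and 0.20, with a median of -1.38. The 4 highest day 5 fish, replicates 1, 2 and 5 of tank 2 and replicate 6 of tank 1, lay within the range of day 3, and the other 6 lay below it. In tank 1 all 5 fish of day 5 lay below the lowest day 3 fish of that tank, with means of -1.83 ± 0.86 (n = 5) on day 5 and -0.10 ± 0.49 on day 3. In tank 2 the means were -0.72 ± 0.97 on day 5 and 0.12 ± 0.69 on day 3, and the fish overlapped. Low fish occurred on other days too. A mean under -1 was found in 6 of 10 fish of day 5, 0 of 10 of day 3 and 8 of the 39 fish of the other days, among them 3 of the 9 fishmeal-fed fish of day 0, and the lowest fish of all was a day 2 fish at -3.16.

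**Figure D4:**
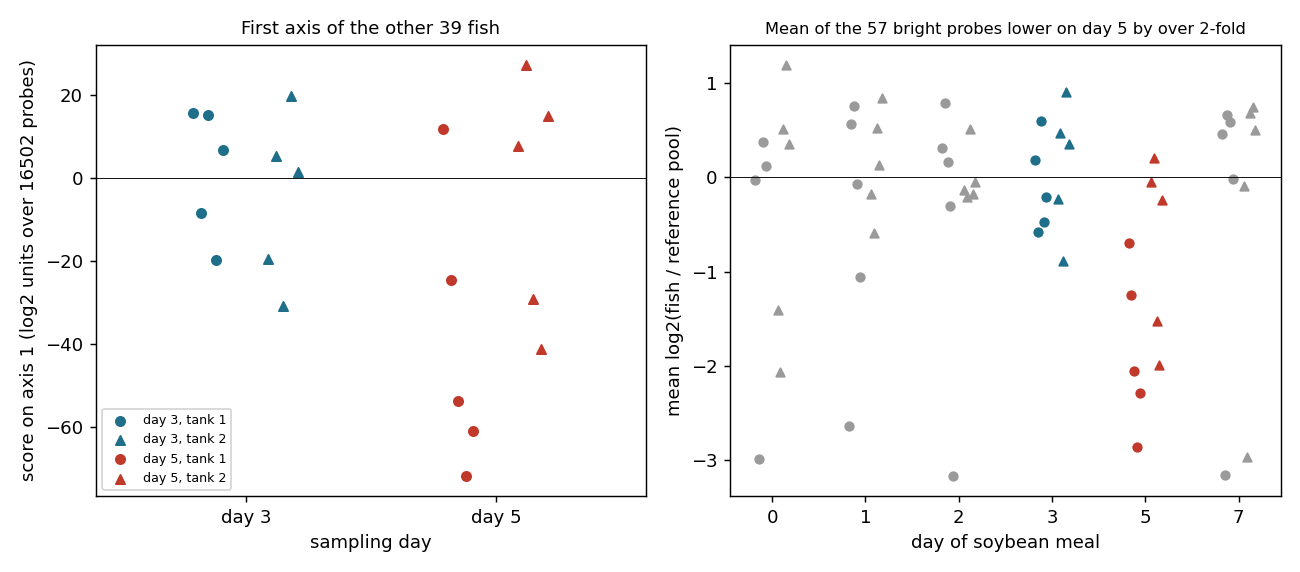
Left, score of each fish of day 3 and day 5 on the main axis of variation of the 39 fish of other days (vertical axis, log2 units summed over 16502 bright probes with their weights). Right, mean log2 ratio of the 57 bright probes lower by over 2-fold (vertical axis) by day of soybean meal (horizontal axis), circles for tank 1 and triangles for tank 2; single fish of days 0, 2 and 7 lie as low as the lowest day 5 fish.

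Most of the 57 probes varied with the main axis of variation of the other days. A principal component analysis of the bright probes in the 39 fish of days 0, 1, 2 and 7, none of which enter the comparison, gave a first axis with 46.2% of their variation. Over those 39 fish, 49 of the 57 probes (86.0%) correlated with this axis at over 0.5, against 26.9% of all bright probes, and the median correlation was 0.86. Values were not scaled by probe, so probes with a large spread weigh more in the axis. The 57 had a larger spread on days 3 and 5 than bright probes in general, and the comparison was not matched for spread. The correlation with the axis was below -0.5 for 3 of the 57, with a lowest value of -0.71, and for 3916 of all 16502 bright probes. Scores of the day 3 fish on that axis ran from -30.9 over a median of 3.39 to 19.8. Scores of the day 5 fish ran from -71.8 over a median of -26.9 to 27.1. Replicates 8, 9 and 10 of tank 1, at -53.9, -71.8 and -61.1, and replicate 4 of tank 2, at -41.3, lay below all day 3 fish, while replicate 2 of tank 2 lay above them. The mean was -1.51 ± 17.4 on day 3 and -22.1 ± 35.3 on day 5 (SD, n = 10 each), and the difference was within the spread between fish (two-sided exact permutation p = 0.116, adjusted p = 0.174 over 3 axes). On day 5 the mean was -39.9 in tank 1 and -4.22 in tank 2. The 39 other fish, on which the axis was built, ran from -108 to 39.2 with an SD of 41.8. Their spread was thus larger than that of day 3 and of day 5.

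The brightness of the 2 channels moved with this axis. The balance of an array was taken as log2 of its median Cy5 over its median Cy3 signal before normalization. Over the 20 fish, it correlated with the score at r = -0.56 (permutation p = 0.00963, adjusted p = 0.0289 over 3 relations) and rho = -0.59 (permutation p = 0.00666). Without the 2 most distant fish r was -0.52. Within day 3 r was -0.41 (permutation p = 0.243), and within day 5 it was -0.63 (permutation p = 0.0477, adjusted p = 0.0715). The balance itself had a mean of 0.09 on day 3 and 0.18 on day 5, a difference within the spread between fish (exact permutation p = 0.593). The part of the channel balance in the values of the 57 probes was not tested.

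The tanks contributed unequally to the largest lower estimates. Probe C104R106 ran from -1.48 over a median of -0.00 to 1.58 on day 3 and from -5.78 over -1.25 to 1.58 on day 5, and the highest fish of both days were equally high while the lowest of day 5 lay far below those of day 3. Its difference over both tanks was -1.84 with a standard error of 1.07 (limma adjusted p = 0.723). Taken by tank, it was -3.51 in tank 1 and -0.16 in tank 2. Probe C179R097 differed in this respect. It ran from -1.31 over -0.10 to 0.84 on day 3 and from -4.97 over -1.42 to -0.06 on day 5. Its difference over both tanks was -1.76 (standard error 0.60, limma adjusted p = 0.598), with -1.87 in tank 1 and -1.65 in tank 2. The correlation with the axis of the other fish was 0.99 for C104R106 and 0.73 for C179R097.

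Single probes were named by a rule: the 8 bright probes in each direction with the smallest p among those with the same sign in both tanks, and likewise 3 dim probes in each direction. Their small p and equal signs in the tanks were thus the grounds of the choice. Each difference holds both channels, and the part of the Cy3 channel in it was not tested. Over the 16 bright probes the size of the difference ran from 0.36 to 1.55 for the 8 higher ones and from -0.88 to -0.53 for the 8 lower ones. The days overlapped for each of the 16, as they did for every probe tested. Within each of the 4 slides that held both days, 13 of the 16 differed in the stated direction. Each of these slides held 1 fish of each day, from different tanks, so day and tank cannot be told apart within a slide. The fish of these slides were among those used for the choice, so this count describes the probes and tests nothing. Spots within 2 rows and columns of the 16 were bright or dim alike and had an unadjusted p under 0.05 in 18 of 367 cases (4.90%), against 7.25% of all probes tested.

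Among bright probes lower on day 5, C259R069 had the smallest p. Its log2 ratio ran from -0.11 over a median of 0.33 to 0.63 on day 3 and from -0.74 over -0.25 to 0.06 on day 5. Of the day 5 fish, 8 of 10 lay below the lowest day 3 fish, and the other two, replicates 4 and 5 of tank 2, lay just above it. Its mean was 0.32 ± 0.22 on day 3 and -0.31 ± 0.28 on day 5 (SD, n = 10 each), a difference of -0.64 (standard error 0.12, 1.55-fold lower, limma adjusted p = 0.0764). The tanks gave -0.75 and -0.52. Its median Cy5 signal was 353 on day 3 and 285.5 on day 5. Its median Cy3 signal, from the pool common to all arrays, was 229.25 on day 3 and 286.5 on day 5. Both channels thus moved, and the part of each in the difference was not tested. Its adjusted p passed 0.05 when the fit was limited to bright probes (0.0408), without replicate 1 of day 3 (0.0311) and without replicate 4 or 5 of day 5 (0.0495 and 0.0420). It was larger than in the 59-array fit under other settings, at 0.271 with slide as a fixed block, 0.279 without replicate 7 of day 3 and 0.467 with median centring, the highest of the limma settings that kept both tanks. The means of days 0, 1, 2 and 7 were 0.14, -0.11, 0.02 and -0.03, between those of day 3 and day 5.

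Probe C211R162 ran from 0.06 over 0.46 to 1.12 on day 3 and from -0.50 over -0.09 to 0.23 on day 5. Day 3 stood apart here, with all 10 fish above 0, while the means of days 0, 1, 2 and 7 were -0.09, -0.10, 0.12 and -0.20. The difference was -0.65 (standard error 0.15, limma adjusted p = 0.519), with -0.94 in tank 1 and -0.37 in tank 2. For probe C123R001 day 5 stood apart instead. Its fish ran from 0.12 over 0.53 to 0.89 on day 3 and from -0.48 over 0.04 to 0.60 on day 5, where replicate 1 was the highest. Means on the other days lay between 0.29 and 0.52, and the difference was -0.53 (standard error 0.13, limma adjusted p = 0.519). Probe C248R063 ran from -0.29 over 0.66 to 1.01 on day 3 and from -1.43 over -0.24 to 0.79 on day 5, with replicate 7 of day 5 as the only fish of that day above 0. Its difference was -0.82 (standard error 0.21, limma adjusted p = 0.519), and the fish of day 5 had an SD of 0.57 against 0.45 on day 3.

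Among bright probes higher on day 5, C137R069 had the smallest p. It ran from -0.53 over -0.26 to 0.22 on day 3 and from -0.37 over 0.37 to 0.68 on day 5. Of the day 5 fish, 9 of 10 lay above the highest day 3 fish, and replicate 2 of tank 2 lay among the lowest of day 3. The difference was 0.57 (standard error 0.14, 1.48-fold, limma adjusted p = 0.519), with 0.63 in tank 1 and 0.51 in tank 2. The means of days 0, 1, 2 and 7 lay between -0.26 and -0.04, near the -0.21 of day 3, so that day 5 stood apart from all other days at 0.36.

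Probe C109R167 gave the largest higher estimate of all bright probes, 1.55 (standard error 0.38, 2.94-fold, limma adjusted p = 0.519), with 1.25 in tank 1 and 1.85 in tank 2. It ran from -1.14 over -0.38 to 1.45 on day 3 and from 0.13 over 1.44 to 2.74 on day 5. All 10 day 5 fish lay above the day 3 mean, and replicate 10 of day 3 was as high as the middle of day 5. Fish of other days reached high values as well, with means from -0.01 to 0.35 and an SD of up to 1.26 on day 0. Probe C169R055 ran from -0.51 over -0.23 to 0.41 on day 3 and from -0.25 over 0.33 to 0.78 on day 5, a difference of 0.49 (standard error 0.12, limma adjusted p = 0.519). Probe C007R079 ran from -0.74 over -0.30 to 0.04 on day 3 and from -0.19 over 0.06 to 0.44 on day 5, a difference of 0.43 (standard error 0.11, limma adjusted p = 0.519). In C007R079 the 5 day 5 fish of tank 1 were all above 0 and the 5 of tank 2 all below it, and the tanks gave 0.63 and 0.23.

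**Figure D5:**
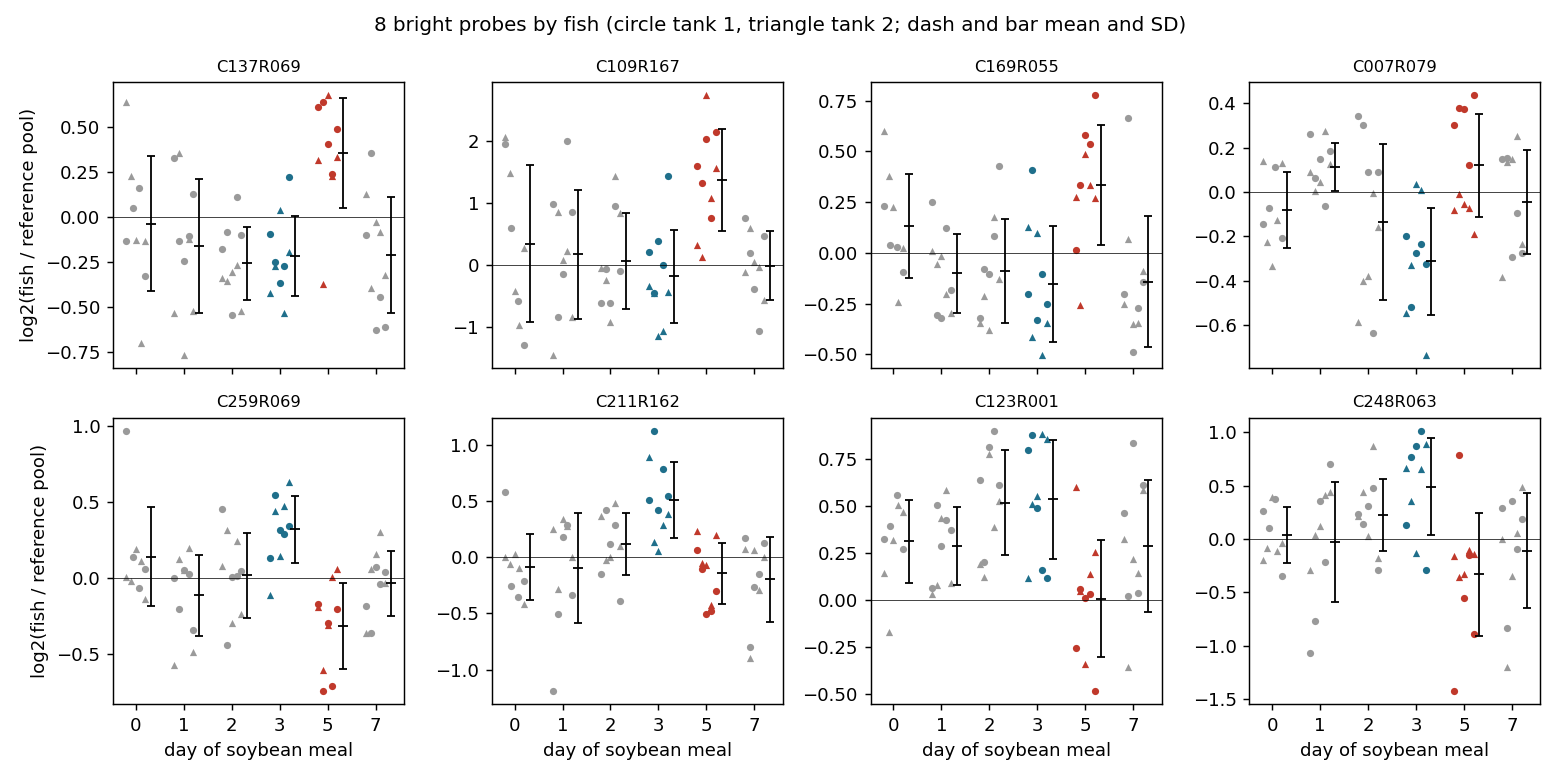
Log2 ratio to the reference pool (vertical axis) of every fish by day of soybean meal (horizontal axis) for the 4 bright probes in each direction described singly; circles are tank 1, triangles tank 2, and the dash and bar are the mean and SD of a day. Day 3 and day 5 fish overlap for each probe, and the other days lie near day 3 for C137R069, near day 5 for C211R162 and between for C259R069.

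The remaining 8 named bright probes were C006R073, C156R082, C030R127 and C074R166, higher on day 5 by 0.36 to 0.70, and C036R023, C117R059, C144R018 and C176R029, lower by values from -0.88 to -0.65. Their limma adjusted p ran from 0.519 to 0.581. C030R127 was the brightest of the 16, with a median Cy5 signal of 25142. C144R018 and C176R029 differed more in tank 2 (-1.18 and -1.05) than in tank 1 (-0.22 and -0.57). The next bright probes after the named ones were C033R086 (0.49, adjusted p = 0.581) and C193R075 (-0.50, adjusted p = 0.519), so the last named and the first unnamed probes differed little.

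Whether the named probes vary together was read in the 39 fish of other days, which the choice did not use except through the shared estimate of spread. The 56 pairs of the same direction had a median correlation of 0.26, from -0.21 to 0.65, with 7 above 0.5. The 64 pairs of opposite direction had a median of -0.21, from -0.75 to 0.32, with none above 0.5. The closest pair was C211R162 and C248R063, at 0.65, and the most opposed was C030R127 and C248R063, at -0.75. Correlations with the main axis of these fish were 0.58 for C211R162, 0.51 for C248R063 and -0.66 for C030R127. Their median was -0.35 over the 8 higher probes (from -0.66 to -0.04) and 0.41 over the 8 lower ones (from -0.16 to 0.63). No pairs of other bright probes are given for comparison. The 39 fish share slides and the reference pool.

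Among dim probes, C016R082 ran from -1.22 over -0.47 to -0.04 on day 3 and from -0.27 over 0.29 to 1.04 on day 5. Of the day 5 fish, 8 of 10 lay above the highest day 3 fish. The difference was 0.87 (standard error 0.17, limma adjusted p = 0.0764), or 1.28 without the added 50. It was 1.20 in tank 1 and 0.54 in tank 2. The 4 slides that held both days had 1 fish of each, from different tanks. Within them, 3 differences were above 0 and the lowest was -0.16. Of the 23 spots within 2 rows and columns of it, 4 had an unadjusted limma p under 0.05, against 7.25% of all probes tested. The median Cy5 signal of C016R082 was 84.8 on day 3 and 160.5 on day 5. Its median Cy3 signal, from the pool common to all arrays, was 150.25 on day 3 and 96 on day 5. Both channels thus moved, and the part of each in the difference was not tested. Its adjusted p passed 0.05 with array quality weights (0.0349) and without replicate 1 of day 5 (0.0482). It was 0.298 with median centring and 0.412 without replicate 6 of day 5, the highest of the limma settings that kept both tanks. The other dim probes were C178R105 and C040R130, higher by 0.48 and 0.60, and C112R142, C055R119 and C201R113, lower by values from -0.59 to -0.49. For C055R119 the limma adjusted p was 0.519. It ran from 0.0495 without replicate 4 of day 5 to 0.817 with median centring, the highest of the limma settings that kept both tanks. Without the added 50, C178R105 and C040R130, at a median Cy5 signal of about 20, had differences of 1.74 and 2.36. The lower probes C112R142, C055R119 and C201R113 then had differences of -0.86, -1.07 and -2.34, so the sizes of all 5 rest on the offset. The median Cy3 signal of C178R105 and C040R130 was 34 and 35.25 on day 3 and 16 and 15.5 on day 5. That of C112R142, C055R119 and C201R113 was 103.5, 51 and 11.75 on day 3 and 100.5, 68.5 and 23.5 on day 5.

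Set against the other days, day 5 and day 3 were the days whose mean profile lay farthest from the mean of the rest. The root mean square distance over bright probes was 0.224 for day 5 and 0.178 for day 3, and it ran from 0.107 to 0.151 for days 0, 1, 2 and 7. Over dim probes the 6 days ran only from 0.108 to 0.121. Days were not all equally well measured, with 9 fish on day 0, and the order was not tested. Of the 1622 bright probes with a small p, the level of the other days was placed on a scale with 0 at the day 3 mean and 1 at the day 5 mean. The median position was 0.52 for day 0, 0.55 for day 1, 0.28 for day 2 and 0.42 for day 7. Probes chosen for a small p between these days have their 2 means pushed apart by the choice, so a position between them is a description only. Of the 16 named bright probes, 8 had their day 5 mean farther from the other days than their day 3 mean. These were all of the higher probes except C007R079, and of the lower ones only C123R001. For the higher probes, the median difference from the other days was -0.17 on day 3 and 0.34 on day 5. For the lower ones it was 0.44 and -0.29. The probes were chosen on the contrast of these days, so this too is a description only.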

How the data were processed

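The scanner intensity values that the authors deposited are background-corrected spot medians of Cy5 and Cy3, per the file headers. The method of that correction was not given in the sources used here. Of 45220 spots, 1531 controls and 62 probes with spot flag 1 were left out. Flags 2 and 3, deposited without a key, were kept. Values below 0 (1.72% of Cy5, 0.984% of Cy3) were set to 0 and 50 was added. The authors also deposited log2 values, which correlated at 0.997 to 0.998 with their own array (at most 0.720 with another) as log2(Cy5/Cy3), had a median of 0 for each probe, and had column medians from -0.0232 to 0.0252. How the authors normalized within arrays is unknown here.

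Loess ratios of 59 arrays were fitted by limma 3.58.1 (lmFit, eBayes; R 4.3.3) with no covariate, and the contrast of day 5 and day 3 was adjusted over 43627 probes. One array labelled day 1 carries tank 0 in its title and stayed out, since the design has tanks 1 and 2. The interaction of day and tank used the same arrays. The fit was also run on simulated data, in which residuals were shuffled among days. That simulation held no difference in spread between days, its outcome is not given here, and nothing rests on it. Slide numbers were inferred from the names of the deposited arrays and are not recorded in the labels. Replicates are separate fish, per the labels. Replicate numbers were not taken to pair fish: deviations of same-numbered fish correlated at -0.278 to 0.289. The members, lists and rules were chosen with earlier results of these data known. Probes were named by the smallest p among those with the same sign in both tanks, the first 8 bright and 3 dim ones in each direction. Gene and cell type lists had been drawn up but gave no result, since position names could not be matched to the gene table. Alternatives covered background, normalization, the authors' table, the bright limit, flags, slide and slide position, tank, replicate block, array weights, estimate of spread, test, threshold, first component, single tanks, the tank 0 array and each fish left out.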

Additional observations from a re-analysis of the deposited data

Results flagged for a closer look

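The 22 named probes and the array properties were screened for single fish that stood far from the rest of their day, in 60 sets of 10 fish, and 2 were found where chance gives about 3. The log2 ratio of C137R069 was -0.37 in replicate 2 of day 5, and the next lowest fish was at 0.23. The log2 ratio of the dim probe C178R105 was 0.76 in replicate 7 of day 5, and the next highest was at 0.38.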

How the results depend on the processing

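The count of 0 calls held under all alternatives run except 1 call with the fit limited to bright probes, 1 with array weights, 2 at an adjusted p of 0.10, and 0 to 2 when single fish were left out. The 22 named probes kept their sign in each of their 874 values under 40 settings, and 7 of these passed 0.05. In each setting with such a value, limma called only 1 or 2 probes, of 16502 with the fit limited to bright probes and of 43627 otherwise. The named probes were chosen from the same fish by small p and equal sign in both tanks. Their sign was thus largely fixed by the choice, and its constancy tests nothing. In the fits of single tanks the sign was the rule of choice itself. Some settings, such as the exact Wilcoxon test, left the differences unchanged. No share of all probes that kept their sign is given for comparison. With the replicate block in a fit of the 20 arrays, limma called 0 probes and counted 2389 bright ones at an unadjusted p under 0.05, against 2366 without the block, so it changed no call; 3 of 10 same-numbered pairs correlated over 0.1, and 1 of 10 fish correlated best with its own number. The bright count was 642 with tank 2 alone and ran from 1182 to 2025 with single fish left out. The tank correlation turned to -0.0023 over dim probes and ran from -0.0800 to 0.241 with single fish left out, below 0 without replicates 4, 5 or 9 of day 3 or 3 or 4 of day 5. The difference in distance from the day's mean was 0.00887 over dim and 0.0419 over all probes (exact permutation p = 0.0604, approximate since distances were not recomputed), and 0.0720 to 0.101 with single fish left out. The share between days ran from 7.80% to 11.2% with single fish left out, with an exact permutation p of 0.0271 to 0.125, under 0.05 without replicate 3 of day 3 or 1, 2 or 5 of day 5. With median centring this share was 7.01% (one-sided exact permutation p = 0.184), below that range. The test between tanks gave 0 calls in each setting run. Chosen after seeing the data, the count of 57 bright probes lower by over 2-fold was 17 with the first component as a covariate, 446 in tank 1 alone, 84 in tank 2 alone, 95 without the 3 day 5 fish of a shared slide, and 40 to 110 with single fish left out, with 89, 110 and 86 without replicates 1, 2 and 5 of day 5. The cause of these shifts was not tested. Signal limits the dim probes, whose intervals lie within 2-fold mostly through the offset.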
